A study of Mus musculus with 5 samples.

Results

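Genes of the major histocompatibility complex class II pathway build, load and control the surface molecules that show peptides to CD4 T cells. Here 7 of them were followed: the invariant chain gene Cd74, the chain genes H2-Aa, H2-Ab1 and H2-Eb1, the peptide-editing genes H2-DMa and H2-Oa, and Ciita, the transactivator of the class. They were taken by symbol, as all probe sets whose platform annotation gives 1 of these symbols and no other. This gave 15 probe sets covering all 7 genes, among 45037 probe sets and 18193 genes with a probe set of their own.

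RNA came from mouse KLS cells, sorted as positive for c-Kit and Sca-1 and negative for lineage markers, the bone marrow fraction that holds haematopoietic stem cells and multipotent progenitors, and was measured on Affymetrix arrays. The Rb family deficient group had 3 arrays of the genotype Rb -/- p130 -/- p107 -/-, and the control group, titled wild type, had 2 arrays of the genotype Rb +/+ p130 +/+ p107+/-, so control cells also carried a mutant p107 allele. For all 5 arrays the labels give recombination through Mx1Cre, driven by an interferon-responsive promoter that is also active outside KLS cells, at 6 weeks of age, and a sort 2 months later. They do not say whether control mice carried Cre, which strain or sex was used, or whether an array holds 1 animal or a pool, so each p-value rests on the spread among these samples alone, which may be technical.

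In antigen-presenting cells such as B cells, dendritic cells and macrophages, class II alpha and beta chains pair around the invariant chain, which fills the peptide groove and carries the complex to endosomes. Cathepsins trim the invariant chain there, H2-M (H2-DMa with an H2-DMb chain) exchanges its last fragment for a peptide, and H2-O (H2-Oa with H2-Ob) restrains H2-M. CIITA does not bind DNA itself. It docks on factors that sit on the X box (the RFX complex) and the Y box (NF-Y) of class II promoters.

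Promoter windows are shown because this shared module is the textbook link between Ciita and the chain genes. RefSeq's table for build GRCm38.p6, with 250 bases before to 50 after each start, gave windows for H2-Aa, H2-Eb1, H2-Oa and H2-DMa. Those of Cd74, H2-Ab1 and Ciita were not analysed here. Capitals mark an ordered pair of the X box core CNNGCAAC and the Y box core TGATTGG; both spellings were chosen with these sequences in view, and they were searched on both strands without overlap between them. The windows lie at chr17:34287774-34288073 (minus strand) for H2-Aa, chr17:34305617-34305916 (plus strand) for H2-Eb1, chr17:34092129-34092428 (plus strand) for H2-Oa and chr17:34325425-34325724 (plus strand) for H2-Eb2, a related beta chain gene that is no member and is shown for contrast.
H2-Aa: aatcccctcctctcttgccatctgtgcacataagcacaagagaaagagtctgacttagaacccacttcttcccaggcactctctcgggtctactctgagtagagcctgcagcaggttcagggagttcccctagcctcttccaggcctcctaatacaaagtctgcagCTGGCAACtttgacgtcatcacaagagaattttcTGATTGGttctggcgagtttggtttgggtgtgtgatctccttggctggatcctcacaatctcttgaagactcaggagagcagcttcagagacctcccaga
H2-Eb1: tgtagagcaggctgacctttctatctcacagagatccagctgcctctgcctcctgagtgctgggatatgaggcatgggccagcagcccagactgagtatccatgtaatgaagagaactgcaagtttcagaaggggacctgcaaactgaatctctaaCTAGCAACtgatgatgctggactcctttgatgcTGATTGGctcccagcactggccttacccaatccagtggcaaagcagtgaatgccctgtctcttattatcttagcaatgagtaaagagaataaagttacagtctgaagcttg
H2-Oa: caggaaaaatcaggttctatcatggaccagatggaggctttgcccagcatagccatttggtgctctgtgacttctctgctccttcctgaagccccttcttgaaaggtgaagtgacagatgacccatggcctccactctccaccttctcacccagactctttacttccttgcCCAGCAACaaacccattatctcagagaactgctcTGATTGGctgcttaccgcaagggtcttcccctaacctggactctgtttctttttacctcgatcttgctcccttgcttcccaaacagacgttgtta
H2-Eb2: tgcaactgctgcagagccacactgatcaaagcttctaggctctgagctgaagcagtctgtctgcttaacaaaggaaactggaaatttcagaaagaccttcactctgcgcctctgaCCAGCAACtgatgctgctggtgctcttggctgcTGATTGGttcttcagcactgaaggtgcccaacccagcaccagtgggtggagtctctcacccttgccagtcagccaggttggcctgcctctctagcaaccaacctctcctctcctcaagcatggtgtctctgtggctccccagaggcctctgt

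Each of these 4 windows held an X box core followed within 60 bases by a Y box core on the gene's strand, with 25 or 26 bases between them. Counted on either strand, that ordered pair was found in 52 of the 32851 windows searched (0.158%), all of the same length. The X box core was found on either strand in 11.2% and the Y box core in 7.82%. H2-Ob held the pair as well, with 23 bases between the cores, and neither of the H2-DMa windows held it in these letters. A match describes letters and is not a measured binding site.

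The arrays were alike in scale, with log2 medians of 4.71 to 4.74 and pairwise correlations of 0.979 to 0.993 across probe sets. Of the sort markers, Kit read 10.88 to 11.25 in deficient cells and 11.08 and 10.83 in controls on the log2 scale, and Ly6a, which encodes Sca-1, was not analysed here. Rbl1, the p107 gene, read 5.15, 4.25 and 4.73 in deficient cells, against 8.33 and 7.16 in controls, while the groups overlapped for Rb1 and Rbl2. Where those probes lie relative to the deleted parts is not given here, so they do not check the deletions. Deficient 2 stood apart in sex-linked RNA, with Eif2s3y at 3.50 against 9.81 to 10.37 on the other arrays. Control 2 read high for both Xist (10.67) and Eif2s3y (9.81). The 18S ribosomal control set read 9.70 to 9.88 in deficient cells and 10.36 to 10.45 in controls. The 5' set of beta-actin read 10.51 to 10.79 in deficient cells and 10.95 and 11.07 in controls, without overlap, while its 3' set overlapped at 14.04 to 14.19 in deficient cells and 14.12 and 14.19 in controls. The 5' set of Gapdh overlapped, at 9.08 to 9.55 in deficient cells and 9.29 and 9.17 in controls. Its 3' set read 13.95 to 14.00 in deficient cells and 13.86 and 13.88 in controls, without overlap. The part of sex or RNA quality in the class II values was not tested.

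For 6 of the 7 class II genes every deficient array read below both control arrays on the brightest probe set. Cd74, H2-Aa and H2-Eb1 showed the wide gaps, with differences of -2.71, -2.70 and -2.12 on the log2 scale (deficient minus control). H2-Oa, H2-Ab1 and H2-DMa differed by -0.79, -0.76 and -0.50. Ciita was dim on all arrays and its groups overlapped. Only Cd74 passed the test when each gene was counted once (limma with Benjamini-Hochberg adjustment over all genes, adjusted p under 0.05). In bulk RNA, fewer cells of a type and less RNA per cell cannot be told apart.

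These counts stand beside the background of the whole table. The members were chosen with earlier results of these data known, so a count above the background is no test. With 1 probe set per gene, 1 of 7 genes fell, where 1.41% of all genes did, and 6 of 7 did not overlap with deficient lower, where 18.6% of all genes did. Over probe sets, 1 of 15 fell, where 0.326% of all probe sets did. Of the 15, 10 were lower at an unadjusted p under 0.05 (background 6.82%), and 11 did not overlap with deficient lower (background 15.2%). The mean was lower in deficient cells for 14 of the 15, and the remaining one, Ciita 1447075_at, had an unadjusted p of 0.287. The median difference was -0.79 over the 7 genes and -0.01 over all genes.

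**Figure D1:**
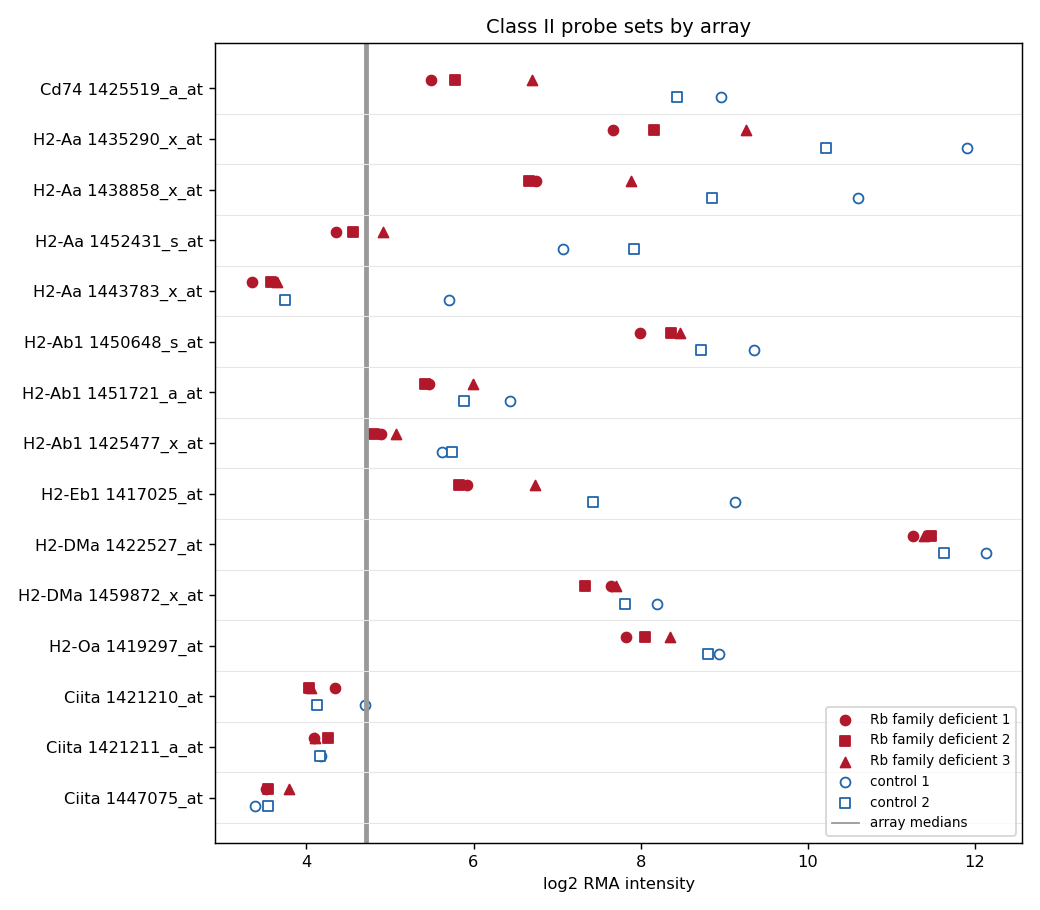
Log2 intensity (x axis) of each class II probe set on the 5 arrays, with deficient arrays as filled red points, control arrays as open blue points and the array medians as a grey line. The deficient arrays of Cd74 lie at 5.49 to 6.70 and its controls at 8.44 and 8.97, while the Ciita sets lie left of the medians.

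Cd74 encodes the invariant chain. Its probe set (1425519_a_at) read 5.49, 5.78 and 6.70 on deficient arrays 1 to 3, against 8.97 and 8.44 on control arrays 1 and 2. The groups were well apart, with deficient 3 closest to the controls. Deficient cells averaged 5.99 ± 0.63 and controls 8.70 ± 0.37 (SD, n = 3 and 2), a difference of -2.71 (SE 0.37, 95% interval -3.61 to -1.81), or 6.54-fold lower. The adjusted p from limma was 0.0301 with 1 probe set per gene and 0.0563 over all probe sets, so the call depends on how genes are counted. It also depends on single arrays: with 1 probe set per gene the adjusted p was 0.0713 without deficient 1, 0.0884 without deficient 2, 0.0231 without deficient 3, 0.125 without control 1 and 0.0676 without control 2. The difference itself stayed between -3.06 and -2.44 in those fits.

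H2-Aa encodes the alpha chain of I-A. Its brightest set (1435290_x_at) read 7.68, 8.15 and 9.26 in deficient cells, against 11.90 and 10.22 in controls. All deficient values were lower, but the controls lay far apart, with control 1 above control 2. Deficient cells averaged 8.36 ± 0.81 and controls 11.06 ± 1.19 (SD, n = 3 and 2), a difference of -2.70 (SE 0.62, 95% interval -4.20 to -1.20), or 6.49-fold lower. It did not pass (limma, adjusted p = 0.0881 with 1 probe set per gene), and it was -1.86 without control 1 and -3.54 without control 2. A second set (1438858_x_at) gave a like picture, with 6.74, 6.66 and 7.88 in deficient cells, against 10.60 and 8.85 in controls, and a difference of -2.63 (SE 0.60; limma, adjusted p = 0.132 over all probe sets).

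The remaining H2-Aa sets disagreed on the order of the controls. The set 1452431_s_at was the single member set that fell over all probe sets, reading 4.35, 4.56 and 4.91 in deficient cells, against 7.07 and 7.92 in controls. Its difference was -2.89 (SE 0.29, 95% interval -3.60 to -2.18; limma, adjusted p = 0.0296). Its deficient values lie around the array medians, where RMA, the authors' normalization, compresses differences, so no fold is given. Control 1 minus control 2 was -0.85 on this set, against 1.68, 1.75 and 1.96 on the other H2-Aa sets. The call held without control 1 (adjusted p = 0.0401) and was lost without deficient 1 (0.103), deficient 2 (0.106), deficient 3 (0.0811) or control 2 (0.0697). The dimmest set, 1443783_x_at, read 3.35, 3.58 and 3.65 in deficient cells, against 5.71 and 3.75 in controls. Its gap rested on control 1: the difference of -1.20 (95% interval -2.51 to 0.11) became -0.22 without control 1, and -2.18 without control 2 (adjusted p = 0.0487). All 4 H2-Aa sets carry the suffix _x_at or _s_at, which Affymetrix gives to sets whose probes can match several transcripts.

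H2-Ab1 encodes the I-A beta chain, the partner of H2-Aa. Its brightest set (1450648_s_at) read 7.99, 8.37 and 8.47 in deficient cells, against 9.36 and 8.72 in controls. The groups did not overlap, but control 2 lay nearer to deficient 3 than to control 1. The difference was -0.76 (SE 0.23, 95% interval -1.34 to -0.19), or 1.7-fold lower, and did not pass (limma, adjusted p = 0.158 with 1 probe set per gene). It was -0.44 without control 1 and -1.08 without control 2. The set 1425477_x_at read 4.90, 4.81 and 5.07 in deficient cells, against 5.63 and 5.74 in controls, and its difference of -0.76 stayed between -0.83 and -0.70 with any array left out (limma, adjusted p = 0.0742 over all probe sets with all arrays). The groups of 1451721_a_at overlapped, with 5.47, 5.42 and 6.00 in deficient cells, against 6.44 and 5.89 in controls (difference -0.53, adjusted p = 0.417).

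H2-Eb1 encodes the I-E beta chain and has 1 probe set (1417025_at). It read 5.93, 5.83 and 6.74 in deficient cells, against 9.13 and 7.43 in controls. Every deficient value was lower, and the controls were 1.70 apart where the deficient arrays spanned 0.91. Deficient cells averaged 6.16 ± 0.50 and controls 8.28 ± 1.20 (SD, n = 3 and 2), a difference of -2.12 (SE 0.52, 95% interval -3.39 to -0.85), or 4.35-fold lower (limma, adjusted p = 0.104 with 1 probe set per gene). It was -1.27 without control 1, and -2.97 without control 2, where it passed (adjusted p = 0.0494). The beta chain gene H2-Eb2, whose window is shown above with the same pair of cores, read 4.91 to 5.15 in deficient cells and 5.11 and 5.12 in controls (difference -0.05, 95% interval -0.35 to 0.25). These values lie little above the array medians, where RMA compresses differences. H2-Ea, the I-E alpha chain gene and a transcribed pseudogene in the RefSeq assembly, read 6.71 to 6.84 in deficient cells and 6.77 and 6.88 in controls (difference -0.04, 95% interval -0.31 to 0.23).

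**Figure D2:**
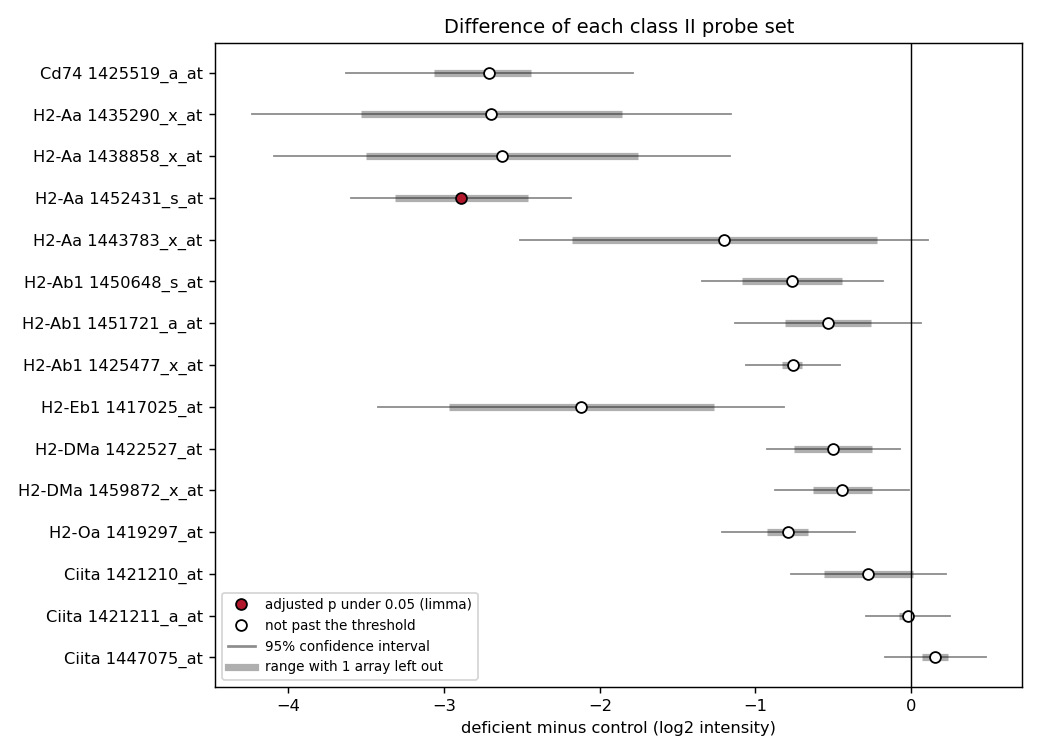
Deficient minus control in log2 intensity (x axis) for each class II probe set, with the 95% interval as a thin line and the range over the fits that leave out 1 array as a thick bar. The bars of H2-Eb1 (-2.97 to -1.27) and H2-Aa 1435290_x_at (-3.54 to -1.86) are wide, and that of Cd74 runs from -3.06 to -2.44.

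The peptide editors differed less than Cd74, H2-Aa and H2-Eb1, and H2-Oa differed about as much as the chain gene H2-Ab1. H2-DMa, the alpha chain of H2-M, read 11.26, 11.48 and 11.39 in deficient cells, against 12.13 and 11.63 in controls. Control 2 lay just above the highest deficient array. The difference was -0.50 (SE 0.17, 95% interval -0.93 to -0.08), or 1.42-fold lower, and did not pass (limma, adjusted p = 0.199 with 1 probe set per gene); it was -0.25 without control 1 and -0.75 without control 2. Its other set, 1459872_x_at, read 7.65, 7.33 and 7.71 in deficient cells, against 8.19 and 7.82 in controls (difference -0.44, adjusted p = 0.342 over all probe sets).

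H2-Oa encodes the alpha chain of H2-O. It read 7.83, 8.06 and 8.36 in deficient cells, against 8.93 and 8.81 in controls. Here the controls lay close together and above all deficient arrays. Deficient cells averaged 8.08 ± 0.27 and controls 8.87 ± 0.09 (SD, n = 3 and 2), a difference of -0.79 (SE 0.17, 95% interval -1.21 to -0.37), or 1.73-fold lower. It missed the threshold (limma, adjusted p = 0.083 with 1 probe set per gene) and stayed between -0.93 and -0.66 with any array left out.

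Ciita, read here as the upstream check, lay below the median of every array on all 3 of its sets. The brightest, 1421210_at, read 4.35, 4.03 and 4.05 in deficient cells, against 4.70 and 4.13 in controls. Deficient 1 lay between the controls. The difference was -0.28 (SE 0.20, 95% interval -0.77 to 0.22; limma, adjusted p = 0.57 with 1 probe set per gene), and without control 1 it was 0.01. The set 1421211_a_at differed by -0.02 (95% interval -0.29 to 0.25) and 1447075_at by 0.15 (95% interval -0.17 to 0.48), both with overlapping groups. These intervals bound the difference in signal, and at levels this dim RMA compresses differences.

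Within the groups, control 1 read above control 2 in 12 of the 15 sets, as it did in 48.2% of all probe sets. Deficient 3 was the highest deficient array in 12 of the 15, and in 33.6% of all probe sets. Both held in 9 of the 15. The sets with control 2 above control 1 were H2-Aa 1452431_s_at, H2-Ab1 1425477_x_at and Ciita 1447075_at.

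The class II region of chromosome 17 also holds class I pathway genes, which allows a comparison among neighbours. RefSeq places 13 protein-coding genes between H2-Oa and H2-Eb1, of which 12 were measured with a probe set of their own: 5 members and 7 others. The others include the class II genes H2-DMb2 and H2-Ob. Probe sets shared by H2-DMb1 and H2-DMb2 are not counted here and are given under other observations. None of the 7 others passed in either direction (limma, 1 probe set per gene; background 1.41% lower and 0.83% higher), and at an unadjusted p under 0.05 there were 2 lower and 1 higher (background 9.86% lower and 8.79% higher). Their median difference was -0.24, beside -0.79 for the 5 members. None of those 5 members passed either (limma, adjusted p 0.083 to 0.199 with 1 probe set per gene). Tap1 and Tap2, the peptide transporter of class I, differed by 0.24 (95% interval -0.20 to 0.67) and 0.12 (-0.25 to 0.49). The immunoproteasome genes Psmb9 and Psmb8 differed by -0.38 (-0.64 to -0.12) and -0.24 (-0.55 to 0.06), and Brd2, a reader of acetylated histones, by 0.30 (0.04 to 0.55). H2-DMb2, a beta chain of H2-M, differed by -0.48 (adjusted p = 0.0877), and its 3 probe sets ranged from -0.48 to 0.03. H2-Ob, the beta chain of H2-O, read 8.04, 8.01 and 8.26 in deficient cells, against 9.15 and 7.98 in controls, so its difference of -0.46 came with overlapping groups and turned to 0.13 without control 1.

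**Figure D3:**
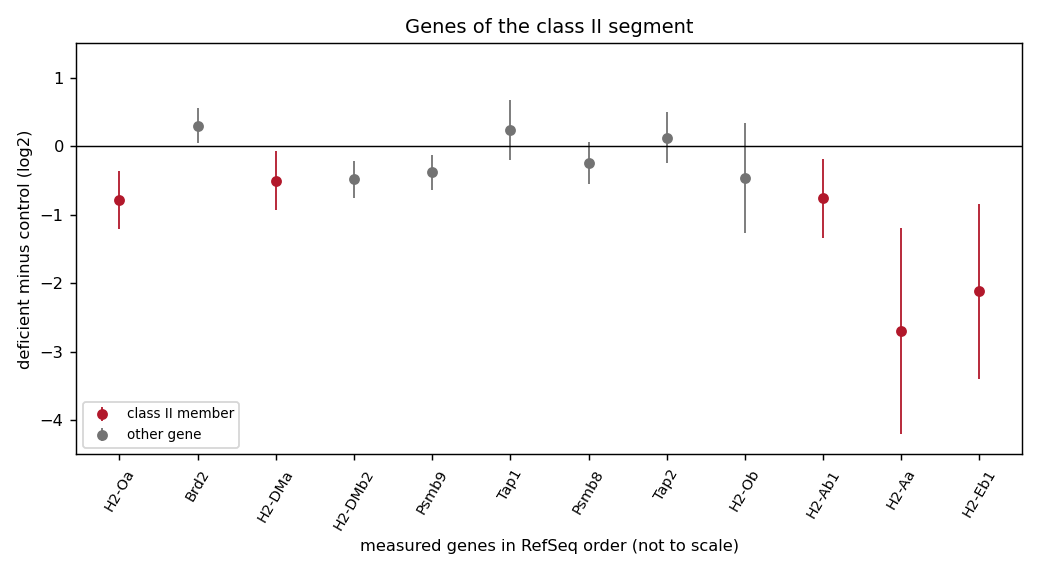
Deficient minus control in log2 intensity (y axis, with 95% intervals) for the 12 measured genes between H2-Oa and H2-Eb1, in RefSeq order and not to scale. H2-Aa (-2.70) and H2-Eb1 (-2.12) lie lowest, while Tap1 (0.24), Tap2 (0.12) and Brd2 (0.30) lie above 0.

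Other genes of the pathway were read through lists, each gene by its brightest probe set and the same fit. The lists were chosen with earlier results of these data known, so counts above the background are no test. Of 203 listed genes 181 were measured: 14 fell and none rose (limma, adjusted p under 0.05; background 1.41% lower and 0.83% higher), and at an unadjusted p under 0.05 there were 55 lower and 15 higher (background 9.86% lower and 8.79% higher). Among the companions of the class II machinery, 1 of 21 fell and the median difference was -0.14. That gene was Ctsh, the lysosomal protease cathepsin H, which read 7.20, 7.11 and 6.40 in deficient cells, against 9.41 and 9.52 in controls (difference -2.56, SE 0.25, adjusted p = 0.0133). Its call was lost without control 1 (adjusted p = 0.0673) or control 2 (0.0539). Ctss, cathepsin S, the main protease for the invariant chain in B cells and dendritic cells, read 8.60, 8.90 and 8.52 in deficient cells, against 9.43 and 10.05 in controls. Its groups did not overlap but its difference of -1.07 missed the threshold (adjusted p = 0.07), as did that of Ctsl, cathepsin L (-0.50, adjusted p = 0.116).

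None of 33 genes that control class II transcription passed in either direction, and their median difference was -0.06. The interferon regulatory factor genes came closest: Irf8 read 10.90, 10.27 and 10.19 in deficient cells, against 11.69 and 11.63 in controls (difference -1.21, adjusted p = 0.0599), and Irf1 read 9.87, 10.10 and 10.09 in deficient cells, against 11.11 and 10.65 in controls (difference -0.86, adjusted p = 0.0662). Of the RFX subunits that bind the X box, Rfx5 differed by -0.03 (95% interval -0.57 to 0.50; 0.31 without control 1), Rfxap by -0.52 (-0.91 to -0.12) and Rfxank by -0.67 (adjusted p = 0.0895), whose probe sets ranged from -0.67 to 0.25. The NF-Y subunits of the Y box differed by 0.26 (Nfya), 0.38 (Nfyb) and -0.11 (Nfyc). Crebbp, a coactivator that CIITA recruits, differed by 0.76 (adjusted p = 0.0908).

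Class I presentation, the pathway for CD8 T cells, had no call among 18 genes and a median difference of -0.09. The smallest p-values belonged to Erap1 (0.55, adjusted p = 0.0805), which trims peptides, Calr (0.52, 0.0879), a chaperone, Psmb9, given above, and Nlrc5 (0.43, 0.157), the class I counterpart of Ciita. The class I light chain B2m differed by -0.11 (95% interval -0.38 to 0.15). Of 7 costimulation genes 1 fell, Cd86, which read 4.64, 4.56 and 4.54 in deficient cells, against 5.56 and 5.76 in controls (adjusted p = 0.0173). The call was lost with any single array left out (adjusted p 0.052 to 0.0736), and the other Cd86 set differed by 0.00. Cd274 differed by 0.29, Cd83 by -0.15 and Cd80 by 0.04.

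Markers of the blood cells that carry class II, and of other mature cells, were read beside the members. For each list the background was 1.41% of all genes lower and 0.83% higher (limma, adjusted p under 0.05). The median difference over all genes was -0.01, and the share of all genes with a lower mean was not counted. Of 18 B cell markers 2 fell, 17 had a lower mean, and the median difference was -0.47. Blnk, a B cell receptor adaptor, read 4.06, 3.80 and 4.31 in deficient cells, against 7.51 and 7.73 in controls (adjusted p = 0.00201). Pou2af1, a B cell coactivator, read 3.41, 3.65 and 3.41 in deficient cells, against 5.64 and 6.06 in controls (adjusted p = 0.00471). Both calls held with any array left out. Ly86 (-2.35, adjusted p = 0.0685) and Ighm (-3.25, 0.0707) missed the threshold, and Ighm read 9.14, 9.32 and 8.88 in deficient cells, against 11.11 and 13.61 in controls. The 11 Ighm probe sets ranged from -3.70 to 0.06. The list summed to 11.09 to 11.16 on the log2 scale in deficient cells and 12.35 to 13.94 in controls. Ighm was a large part of this sum. Without Ighm it was 10.65 to 10.82 in deficient cells and 11.56 and 11.68 in controls, and the Ighm difference itself lay between -4.49 and -2.0 with an array left out. In this list 8 of the 18 lay below the median of every array. Among them were the B cell factor genes Pax5 (difference -0.003) and Ebf1. The latter read 3.60, 3.79 and 3.61 in deficient cells, against 4.05 and 4.73 in controls (difference -0.72; limma, adjusted p = 0.143).

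Of 9 plasma cell markers 3 fell: Igha (-7.88, adjusted p = 0.000146), the IgA heavy chain, Jchain (-7.48, 0.000655), which joins IgA units, and Mzb1 (-2.35, 0.0357), a chaperone of antibody secretion. The Mzb1 call was lost without deficient 1 (adjusted p = 0.107), deficient 2 (0.085) or deficient 3 (0.107). Tnfrsf17 differed by -0.91 (adjusted p = 0.0928). The list had a median of -0.91 and summed to 11.64 to 12.06 in deficient cells and 13.95 to 14.22 in controls. In controls Igha, at 13.24 and 13.51, was a large part of this sum. Below the median of every array lay 2 of the 9, Prdm1 and Irf4. Plasma cells carry little class II as a rule.

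Of 16 macrophage and monocyte markers 2 fell, the lysozyme genes Lyz2 (-1.95, adjusted p = 0.00445) and Lyz1 (-1.21, 0.00841), while 10 had a lower and 6 a higher mean, and the list median was -0.23. The Lyz1 call was lost without deficient 3 (adjusted p = 0.0523). C1qa differed by -0.59 and Csf1r by -0.77, and neither passed. Ccr2, the receptor that draws monocytes out of the marrow, was higher on every deficient array, averaging 9.46 ± 0.49 in deficient cells and 8.47 ± 0.28 in controls (SD, n = 3 and 2), but did not pass (difference 1.00, unadjusted p = 0.0142, adjusted p = 0.146). The list summed to 13.15 to 13.37 in deficient cells and 14.31 to 14.50 in controls, of which Lyz1 was a large part. In it 5 of the 16 lay below the median of every array (Cx3cr1, Mrc1, C1qb, C1qc and Vcam1). Of 17 dendritic cell markers 2 fell, Klrd1 (-2.36; limma, adjusted p = 0.00201) and Ccr9 (-2.35, 0.00346). Klrd1 encodes a receptor of NK cells and is not specific to dendritic cells. Ccr9 encodes a chemokine receptor, and its probe sets ranged from -2.35 to -0.06. Cst3 (-0.48) and Itgax (-0.72) did not pass. Clec10a, a lectin of dendritic cells and macrophages, was higher on every deficient array, with 7.60, 7.77 and 9.02 in deficient cells, against 6.72 and 7.28 in controls, and did not pass either (difference 1.13, unadjusted p = 0.0415, adjusted p = 0.246). In the dendritic list 14 of 17 had a lower mean. It had a median of -0.32 and summed to 14.47 to 14.53 in deficient cells and 14.51 to 14.55 in controls. A large part of this sum was Plac8, at 13.96 to 14.10 in deficient cells and 13.85 and 13.94 in controls. The dendritic list held 3 genes below the median of every array (Xcr1, which was higher on every deficient array by a mean of 0.22, Cd209a and Ccr7). The part of B cells, plasma cells, macrophages or dendritic cells in the class II differences was not tested. The lineage-negative gate of the sort is meant to remove mature B cells and myeloid cells, and whether it did so was not tested.

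Of 12 T and NK cell markers 1 fell, the receptor zeta chain gene Cd247 (-1.43, adjusted p = 0.0356), with a median of -0.14. The 4 Cd247 sets ranged from -1.43 to 0.01. Its call held without control 1 and was lost without control 2 (adjusted p = 0.07), deficient 1 (0.0971), deficient 2 (0.091) or deficient 3 (0.0965). Cd3d (-1.02), Nkg7 (0.63) and Gzma (-1.47) did not pass. The list summed to 11.38 to 11.75 in deficient cells and 10.96 to 11.44 in controls. A large part of this sum was Nkg7, at 11.11 to 11.46 in deficient cells and 10.41 and 10.91 in controls. Of the 12, 9 had a lower and 3 a higher mean, and 2 lay below the median of every array, Cd8b1 and Ncr1. Of 14 genes of the KLS sort and of stem cells 1 fell, Procr (-1.62, adjusted p = 0.0305), a stem cell surface receptor, a call that was lost with any single array left out (adjusted p 0.0558 to 0.116). Gata2 (0.48), Mecom (-1.19) and Tek (-0.68) did not pass, the median was -0.07, and the sums were 13.98 to 14.13 in deficient cells and 13.98 to 14.34 in controls.

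Interferon gamma induces Ciita in many cells, and the labelled Cre is interferon-driven, not necessarily by the same type, so interferon targets were listed too. The list pools targets of different interferon types, and 11 of its 19 genes had a lower and 8 a higher mean. Of 19, 1 fell, the guanylate-binding protein gene Gbp6, which read 4.53, 4.64 and 5.15 in deficient cells, against 6.32 and 6.00 in controls (adjusted p = 0.0385), and the list median was -0.12. The Gbp6 call held without deficient 3 and was lost without deficient 1 (adjusted p = 0.106), deficient 2 (0.101), control 1 (0.151) or control 2 (0.0794). Gbp2 read 8.91, 8.71 and 9.02 in deficient cells, against 10.09 and 9.53 in controls, without overlap (difference -0.93, adjusted p = 0.075). Iigp1 differed by -2.06 (adjusted p = 0.157) and Socs1 by -0.35 (0.198). The list summed to 12.34 to 12.56 in deficient cells and 12.59 to 12.86 in controls, and its part in the class II values was not tested.

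**Figure D4:**
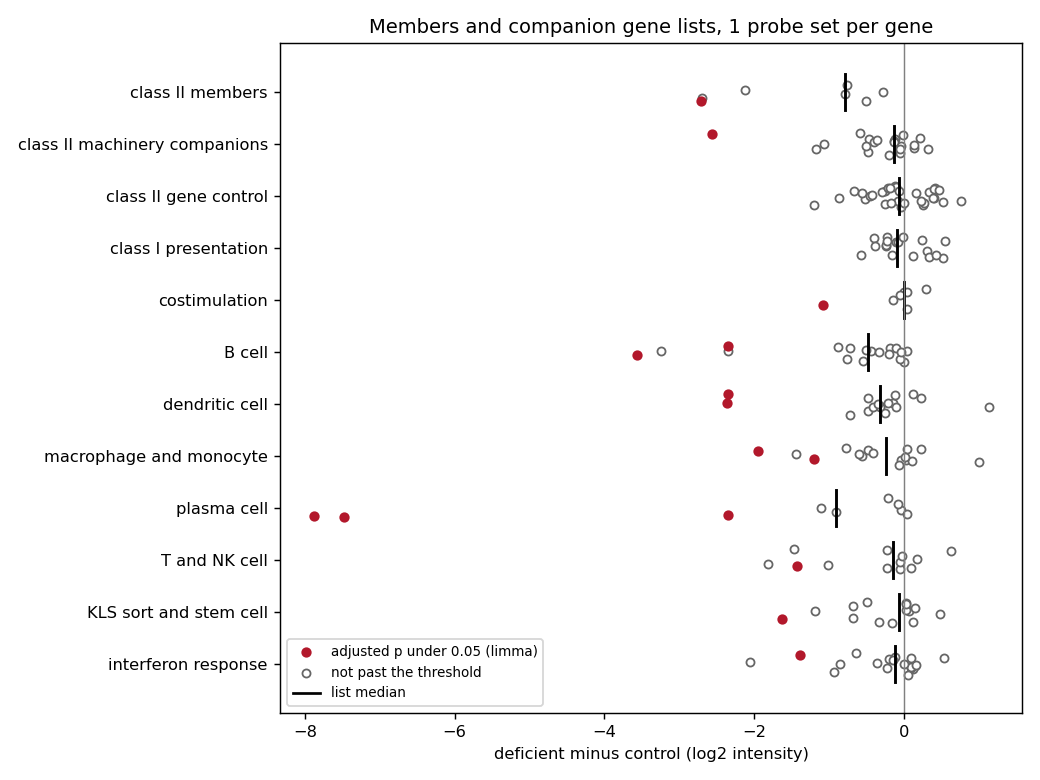
Deficient minus control in log2 intensity (x axis) for the class II genes and for each gene of the 11 lists, with filled points for an adjusted p under 0.05 and a black bar at each median. The class II median lies at -0.79, the plasma cell median at -0.91 and the class I median at -0.09.

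Genes with a profile like that of Cd74 over the 5 arrays were ranked by the root mean square distance between log2 profiles centred on their own means, among 1291 genes with an SD of at least 0.5. The ranking is a description and shares the arrays and groups with the comparison above. The 10 nearest genes other than members were Plbd1 (distance 0.288), Gbp8 (0.329), Slfn2 (0.376), Aldoc (0.388), Bmp4 (0.399), Rag1 (0.404), Cish (0.41), Arpp21 (0.436), Ccl5 (0.441) and Ltb (0.452). The nearest, Plbd1, read 5.76, 6.02 and 6.40 in deficient cells, against 9.26 and 9.02 in controls. Of the members, H2-Aa ranked 4 (0.382), H2-Eb1 17 (0.492) and H2-Ab1 441 (0.995), while H2-DMa, H2-Oa and Ciita had an SD under 0.5.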

How the data were processed

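Total RNA of sorted KLS cells was put on Affymetrix arrays, as the labels' protocols state. The deposited intensity values, 1 per probe set and array, were made by the authors with RMA, per the submitters' processing notes, which forces arrays to a common distribution and compresses differences of dim sets; its version is not given in the sources used here. The study hybridised 6 arrays and excluded 1 for high background. Values ran from 6.96 to 31249 on a linear scale, and log2 was taken here. For arrays no depth applies, and the 5 arrays limit the precision. Each column is headed by its sample's identifier, and the sample's title gave the group.

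GEO's platform annotation gave 34945 probe sets 1 symbol, 932 several and 9160 none; none was named from several. The groups were compared with limma 3.58.1 in R 4.3.3 (lmFit, eBayes, two-sided, no covariate), with Benjamini-Hochberg adjustment over 45037 probe sets, leaving out 64 AFFX controls, and again with the brightest probe set of each of 18193 genes. The fit was tested on simulated data. The members and lists were chosen with earlier results of these data known. The text names every member, every listed gene past an adjusted p under 0.05, the 4 listed genes of smallest unadjusted p in each list, the 3 targeted genes, and the 10 genes most like Cd74. Named beside this rule are H2-Ob, H2-Ea, H2-Eb2, Kit, Rfx5, Rfxap, the NF-Y subunits, B2m, Ccr2, Clec10a, Plac8, Xist and Eif2s3y. So are the segment's neighbours and the markers named as dim. All of these were chosen with their values known. Promoters are RefSeq's, build GRCm38.p6. Alternatives were other normalizations, probe set filters, eBayes settings and array weights, an adjusted p under 0.1, the mean of a gene's sets, a replicate block, and each array left out.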

Additional observations from a re-analysis of the deposited data

How the results depend on the processing

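Calls among the members were few and moved with single settings, while directions held in all alternatives for all members except Ciita. The count of member probe sets that fell was 1, and it was 0 without sets ending in _x_at or _s_at, 2 with an intensity trend, 3 at an adjusted p under 0.1, and 0 to 1 with an array left out; without dim sets it was again 1, but that was Cd74. The count of member genes was 1, and it was 2 with an intensity trend, 3 at an adjusted p under 0.1, 2 with the mean of all sets of a gene, and 0 to 1 with an array left out; without control 2 the called gene was H2-Eb1 in place of Cd74. Of the companions, 14 fell, against 8 without dim sets, 28 at an adjusted p under 0.1 and 9 to 12 with an array left out; 0 rose, against 1 with an intensity trend and 3 at an adjusted p under 0.1. With the replicate number as a block, 0 member probe sets, 0 member genes and 3 companions fell. Deviations of same-numbered arrays from their group means had correlations of -0.05 and -0.02 over all probe sets. With 2 controls, the deviation of either is the reverse of the other's, so these values are not independent. They cannot settle whether the numbers mark a shared batch. In the block fit deficient 3, whose number has no control, does not enter the difference.

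Signs turned for some genes that did not pass: Ciita 1421210_at to 0.010 without control 1 (range with an array left out -0.56 to 0.010), Ciita 1421211_a_at to 0.0053 with the replicate block, 0.0095 without deficient 1 and 0.0053 without deficient 3 (range -0.076 to 0.0095), Cd80 to -0.00249 with the mean of its sets and -0.030 without deficient 2 (range -0.030 to 0.10), and Cd83 to 0.029 without control 2 (range -0.33 to 0.029). With ranges over single arrays left out, H2-Ob turned to 0.13 without control 1 (-1.05 to 0.13), Rfx5 to 0.020 without deficient 2 and 0.31 without control 1 (-0.38 to 0.31), Tap2 to -0.039 without control 2 (-0.039 to 0.29), Kit to -0.058 without deficient 1 and -0.066 without control 2 (-0.066 to 0.19), H2-Eb2 to 0.025 without deficient 2 (-0.096 to 0.025), and H2-Ea to 0.046 with the mean of its sets and 0.015 without control 2 (-0.095 to 0.015). Rfxank turned to 0.25 without _x_at and _s_at sets. The cause was not tested. Over all genes, 257 fell and 151 rose, against 20 and 1 with the replicate block, 590 and 475 at an adjusted p under 0.1, 353 and 204 with an intensity trend, and 57 to 169 lower and 14 to 46 higher with any single array left out. Other normalizations moved the median of all probe sets by at most 0.02. Where a control array was left out, the remaining one was assumed to vary like the deficient arrays. Signals near the array medians, as for Ciita, limit what these arrays can show.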

Other observations

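Probe sets shared by several symbols were left out of the gene counts. Those of the H2-M beta chain genes, annotated to both H2-DMb2 and H2-DMb1, were lower in deficient cells. The set 1418638_at read 7.63, 7.42 and 7.62 in deficient cells, against 8.62 and 8.56 in controls (difference -1.03, SE 0.12; limma, adjusted p = 0.0369 over all probe sets). The set 1449580_s_at read 7.17, 7.05 and 7.51 in deficient cells, against 8.16 and 8.37 in controls (difference -1.03, SE 0.17, adjusted p = 0.0743). The groups did not overlap on either set, and which of the paralogous genes was measured cannot be told apart. The set 1422201_at, annotated to H2-Ob and Gm20506, differed by -0.36 with overlapping groups (adjusted p = 0.508). These sets were chosen after their values were seen.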
